A study of Rattus norvegicus with 32 samples.

Results

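Lungs taken 72 h after a hemorrhage were compared with lungs taken 24 h after it, so both groups came from bled rats, and no sham array entered the test. The comparison used 6 of the 32 samples of the series, 3 at 24 h and 3 at 72 h, chosen by their titles. The rats were male Sprague-Dawley animals of 280 to 300 g. They had been fitted under isoflurane with a pair of arterial catheters and an intraperitoneal telemetry device, and were left to recover for 7 to 10 days. Blood amounting to 40% of the estimated blood volume was then drawn from the externalized catheter. The remaining groups were bled rats at 1, 3, 6, 16 and 48 h, 6 sham arrays and 3 control arrays. Sham rats carried the same implants and lost no blood by withdrawal; controls had no implants, no bleeding and no other handling. Each array had 2 colours and set total RNA of 1 lung sample against a common pool of RNA from several organs of untreated rats. A value is the log2 ratio of lung to pool, minus the median of its array. A value of 0 therefore means the typical ratio of that array, and a difference of 1 is a doubling. Whether replicates came from separate animals is not in the labels, so a p-value here covers sample-to-sample spread, which may be technical.

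Loss of a large share of the blood lowers perfusion of the whole body and is answered by catecholamines, stress hormones and the shift of fluid into the vessels. The lung receives the whole cardiac output, holds resident macrophages, mast cells and lymphocytes, and traps neutrophils after shock. By 1 day after such a loss, the rapid circulatory reflexes are over, and red cell production and plasma protein synthesis are rebuilding the blood.

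The 6 arrays had between 12571 and 12764 spots with a value, of 13056 printed. The paired spots of a cDNA correlated at 0.80 to 0.87 within an array. Replicate 1 of 24 h stood apart in scale: its deposited median was the lowest of the 6 at -0.38, against 0.00 for the highest, and it had 119 spots near the floor of the ratio scale, against 37 to 57 on the other 5. Over all features, arrays of 24 h correlated with each other at 0.48 to 0.61, arrays of 72 h at 0.53 to 0.60, and arrays of the 2 times with one another at 0.37 to 0.61, so the ranges overlapped. The type II pneumocyte markers on the array had a mean level of 1.30 to 2.32 at 24 h and 0.84 to 1.27 at 72 h, above the pool on all 6. That and the channel labels give the direction, lung over pool; which dye marked which channel is not given in the sources used here. Sham replicate 2 carried Alb, the plasma albumin gene of liver, at 2.62 against -4.48 to -2.78 on the other 5 sham arrays, and Sftpc at -3.48 against 2.22 to 4.48. Sham levels are therefore given as medians, and any reading against the sham range is given with and without that array.

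Of 6140 features measured on 2 or more arrays at each time, 3 passed the test at an adjusted p under 0.05, which is 0.0489% (limma, Benjamini-Hochberg over all features). Slc22a8 and Rhbdl2 were higher at 72 h (0.0326%) and Pvalb was lower (0.0163%). At an unadjusted p under 0.05 there were 822 features (13.4%), 395 higher (6.43%) and 427 lower (6.95%). All 72 h arrays lay above all 24 h arrays for 725 features (11.8%) and below them for 589 (9.59%). The difference was above 0 for 3098 features (50.5%), with a median of 0.01. Without centring, that median was 0.19 and the calls were 2 higher and 0 lower; with quantile normalization they were 3 higher and 2 lower, around a median of 0.03. Medians of gene lists without centring are to be read against that 0.19. The count depended on single arrays: it was 15 without 24 h replicate 2, 7 without 72 h replicate 1, 5 without 24 h replicate 3, 2 without 24 h replicate 1, and 0 without 72 h replicate 2 or 72 h replicate 3. The fit took its spread from the 23 arrays of all bled groups; over the 6 arrays alone it called 0 features, with 836 at an unadjusted p under 0.05. For a single gene, an exact permutation test of 3 against 3 cannot go below 0.1.

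**Figure D1:**
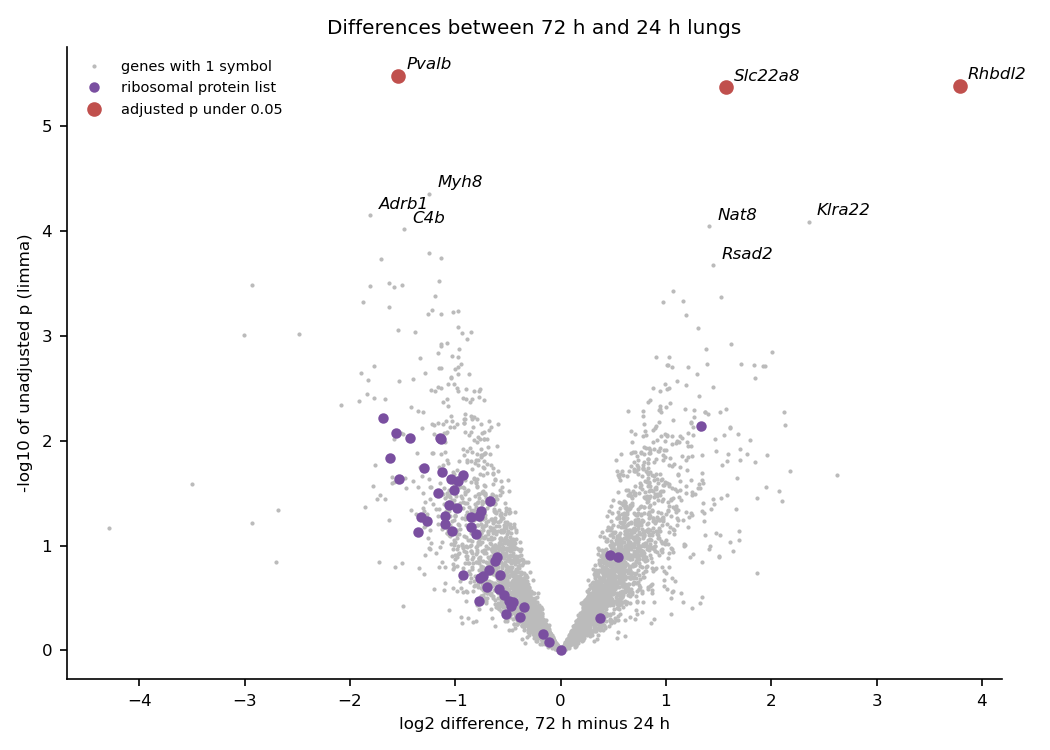
Log2 difference between 72 h and 24 h (horizontal axis) against -log10 of the unadjusted p from limma (vertical axis) for the 5014 tested genes with 1 symbol, each a point. Pvalb, Slc22a8 and Rhbdl2 (red) stand above all other genes, and 47 of the 52 genes of the ribosomal protein list (purple) lie to the left of 0.

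Pvalb encodes parvalbumin, a calcium-binding protein of fast skeletal muscle fibres and of certain neurons. Its log2 ratio was 0.77, 0.39 and 0.32 on the 24 h arrays, -0.37, -0.11 and 0.04 at 48 h and -0.89, -1.03 and -1.22 at 72 h. The 3 times followed each other without overlap between the first and the last, and the replicates of each lay close together. It fell by 1.54 ± 0.24 (SE) on the log2 scale, a 2.91-fold decrease, with an adjusted p of 0.00869. The mean was 0.49 ± 0.24 (SD, n = 3) at 24 h and -1.05 ± 0.17 (SD, n = 3) at 72 h, on either side of the sham median of -0.17. On the arrays of 1 to 16 h it had ranged from -0.22 to 0.63, so the 72 h values lay below every earlier bled array, while 1 control array was at -1.10. Both spots of the gene showed the same: 0.85 and 0.69 on 24 h replicate 1 against -1.14 and -1.31 on 72 h replicate 3. Without centring the difference was -1.36 and the adjusted p 0.0532; it was 0.0928 without 24 h replicate 1, 0.0795 without 72 h replicate 2 and 0.115 without 72 h replicate 3. Of the heart and skeletal muscle markers, 8 of 9 were on the array and 2 of the 8 differences were above 0. Their mean level was -0.90 to -0.56 at 24 h and -1.40 to -1.10 at 72 h and their part in the result was not tested. Other striated muscle genes lay on both sides of 0. Among those of fast fibres, Tnnt3 was -0.78, Myl1 -1.30, Myh1 -0.31, Tnni2 -0.26 and Atp2a1, the calcium pump, -0.01. Myh4 and Myh2, also of fast fibres, were 0.78 and 0.04, and the muscle gene Ckm was -0.81. Of those of slow fibres and heart, Myl2 was -1.31 and Myh7 -0.44, while Tnnt1 was 0.24, Tnni1 0.41 and Myl3 1.02. In bulk tissue, fewer cells of a type and less RNA per cell cannot be told apart.

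Slc22a8 encodes an organic anion transporter best known from kidney tubules and the choroid plexus. Its log2 ratio was -0.98, -1.68 and -1.13 at 24 h, -0.23, -0.79 and -0.48 at 48 h and 0.03, 0.39 and 0.50 at 72 h. All 48 h arrays lay between the other groups. It rose by 1.57 ± 0.25 (SE) on the log2 scale, 2.96-fold, with an adjusted p of 0.00869. The mean of -1.26 ± 0.37 (SD, n = 3) at 24 h was the one away from the sham median of -0.05, and the mean at 72 h was 0.31 ± 0.25 (SD, n = 3). On the arrays of 1 to 16 h the gene had ranged from -0.65 to 0.12, above all 24 h arrays. The adjusted p was 0.088 without 72 h replicate 2 and 0.115 without 72 h replicate 3.

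Rhbdl2, a rhomboid protease that cuts proteins within the membrane, passed with the same adjusted p of 0.00869, but on thin data at 24 h. It had values on only 2 of the 24 h arrays, -6.27 from 1 spot and -3.58 as the mean of spots at -5.51 and -1.65, and no value on the third. At 72 h the values were -1.30, -0.93 and -1.17, and at 48 h -0.90, -1.23 and -1.35. The very low 24 h spots lie at the floor of the scale, where the linear ratio is 0.05 or less, so no fold is given. When such spots were left out, or either of those 24 h arrays, too few values were left to test it. The adjusted p was 0.0795 without 72 h replicate 2 and 0.115 without 72 h replicate 3.

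The next genes in each direction, by p among those with no overlap between the groups, were not called. On the higher side these were Klra22, Nat8, Rsad2, Brinp1, Slc16a10 and Timm10. Klra22, a natural killer cell receptor of the Ly49 family, had -1.25, -3.10 and -3.23 at 24 h and -0.57, 0.31 and -0.27 at 72 h. The 24 h arrays were the low ones, and the sham median was 0.11. The difference of 2.35 ± 0.48 (SE) had an adjusted p of 0.0742. Nat8, which acetylates cysteine conjugates in detoxification, had -1.74, -0.94 and -1.63 at 24 h and -0.14, 0.24 and -0.19 at 72 h, a difference of 1.41 ± 0.29 (SE) and an adjusted p of 0.0742. Its value on 24 h replicate 1 came from 1 spot. On 24 h replicate 2 its spots disagreed, at -0.06 and -1.81, and the higher lay within the range of the 72 h spots. Slc16a10, a transporter of aromatic amino acids, went from -1.14, 0.14 and -1.02 to 0.58, 0.75 and 1.21, with an adjusted p of 0.117. Replicates 1 and 3 of 24 h were low and replicate 2 was near 0. Brinp1, known from the nervous system, had a difference of 1.07 ± 0.25 (SE, adjusted p 0.114), and Timm10, a chaperone for import into mitochondria, 1.16 ± 0.28 (SE, adjusted p 0.117).

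On the lower side stood Adrb1, C4b, Myh8, Tmem158, Hist1h2bg, Aven and Smpd3. Adrb1, the beta-1 adrenergic receptor through which noradrenaline acts on the heart, had 1.15, 0.74 and 0.95 at 24 h, 0.15, 0.96 and -0.37 at 48 h and -0.28, -1.29 and -1.01 at 72 h. The 24 h arrays lay above the sham median of -0.02 and the 72 h arrays below it, with 48 h replicate 2 inside the 24 h range. The difference of -1.81 ± 0.36 (SE) had an adjusted p of 0.0742. C4b, a complement component made in liver and by macrophages, had 1.14, 1.30 and 0.79 at 24 h and 0.26, -1.20 and -0.30 at 72 h (adjusted p 0.0742). Replicate 2 of 72 h was the lowest of the 3, but its spots disagreed, at -0.36 and -2.04. Myh8, the perinatal myosin heavy chain of skeletal muscle, went from 0.32, -0.07 and 0.46 to -0.71, -1.16 and -1.15, with an adjusted p of 0.0675, alongside the muscle markers given with Pvalb.

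Tmem158 had 2.76, 1.98 and 3.16 at 24 h and 0.75, 1.55 and 0.48 at 72 h (adjusted p 0.0949). Smpd3, a neutral sphingomyelinase that makes ceramide, had 0.94, 0.03 and 0.50 and -0.27, -0.77 and -0.94 (adjusted p 0.11), the 24 h arrays spanning the sham median of 0.46. Aven, an inhibitor of caspase activation, had 0.67, 0.33 and -0.25 at 24 h and a narrow -0.86, -0.97 and -0.83 at 72 h (adjusted p 0.0949). Hist1h2bg, a histone H2B gene of a family of close copies, had a difference of -1.25 ± 0.27 (SE, adjusted p 0.0949).

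The 48 h mean lay between the means of 24 h and 72 h for all 8 genes of the higher set and all 8 of the lower set, the 3 called genes included. These genes were chosen for a gap between 24 h and 72 h, and the same held for 82.9% of the 1313 features whose groups did not overlap and for 48% of all features, so nothing is read from that count. For Rhbdl2 it was -1.16 ± 0.23 (SD, n = 3), close to the 72 h mean. In the higher set, the 24 h mean was the one farther from the sham median in 4 of 8 genes, and in the lower set in 5 of 8. The 24 h mean was outside the range of the 6 sham arrays for 4 and 4 genes, and the 72 h mean for 6 and 5. Without sham replicate 2 the 24 h counts were 4 and 4 and the 72 h counts 6 and 7. So some of these genes were near the sham level at 24 h and others at 72 h. Both times were set beside the same sham arrays.

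**Figure D2:**
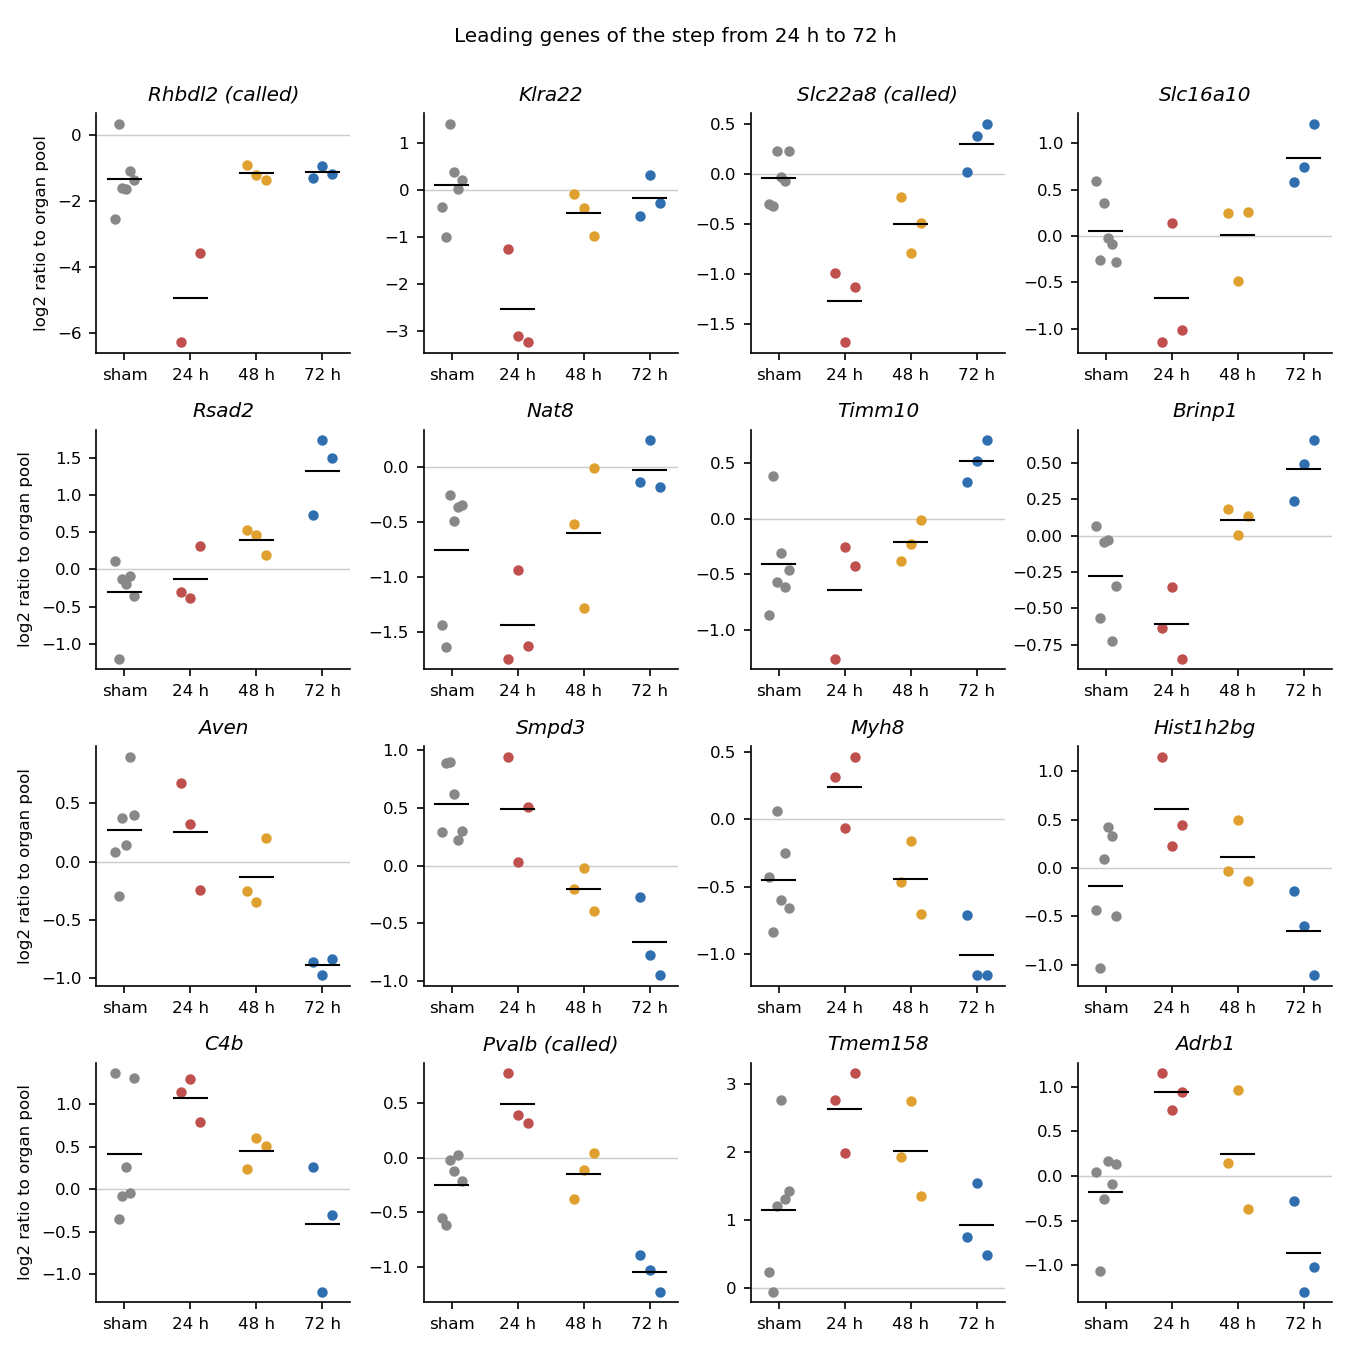
Centred log2 ratio to the organ pool (vertical axis, scale differs by panel) for the 8 leading genes in each direction, by group (horizontal axis); each point is an array and each bar a group mean. Pvalb, Slc22a8 and Rhbdl2 are the genes called; Rhbdl2 has 2 values at 24 h, and sham replicate 2 is the low sham point of Rsad2 (-1.20) and of Adrb1 (-1.07).

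Ribosomal protein genes encode the protein part of the ribosome and are transcribed together in growing tissue. Of the 52 genes with such a symbol, 5 had a difference above 0 (9.62%, against 50.5% of all features), and the median was -0.79 against 0.01. The list kept a median below 0 under every alternative run, at -0.61 without centring, -0.66 with quantile normalization and between -1.17 and -0.58 with an array left out. Single members did not pass: 0 of 52 were called, with a smallest adjusted p of 0.224; 18 were lower and 1 higher at an unadjusted p under 0.05, against 6.95% and 6.43% of all features. All 72 h arrays lay below all 24 h arrays for 7 members, against 9.59% of all features, and above them for 2, against 11.8%. The list's median level was 1.62, 0.46 and 1.44 on the 24 h arrays and 0.23, 0.86 and -0.11 on the 72 h arrays. Replicate 2 of 24 h was thus below replicate 2 of 72 h, and the groups overlapped. At 48 h the medians were 0.55, 1.58 and 0.07, spanning nearly the whole range. On the sham arrays they were 0.02 to 1.35, and 0.45 to 1.35 without sham replicate 2. Against the latter range, the 72 h medians of 0.23 and -0.11 lay below and 0.86 within. The 24 h medians of 1.62 and 1.44 lay above it and 0.46 within. The range of these medians within each group was wider than the median difference between the groups.

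Rps20, of the small subunit, had 2.62, 1.08 and 2.55 at 24 h and 0.44, 0.94 and -0.19 at 72 h, a difference of -1.69 ± 0.55 (SE) with an adjusted p of 0.224. Rplp0, of the stalk of the large subunit, had 2.62, 0.55 and 1.75 and 0.16, 0.28 and -0.20, a difference of -1.56 ± 0.53 (SE) with an adjusted p of 0.233. In both, 24 h replicate 2 was the lowest of its group and still above all of 72 h. Rpl4, Rpl24, Rps14, Rpl35a and Rpl32 likewise showed no overlap, with differences of -1.14, -1.14, -1.12, -0.98 and -0.92. In Rps26 and Rps12, with differences of -1.62 and -1.54, 72 h replicate 2 was higher than 24 h replicate 2. Rpl26 went the other way, from -1.15, -0.08 and -0.53 to 0.06, 1.46 and 0.70, a difference of 1.33 ± 0.44 (SE) with an adjusted p of 0.229. Rpl11, Rpl41 and Rps13 had 0.47, 0.38 and 0.00. The list was taken by symbol, so it also holds Rps6kb1, a kinase and no ribosomal protein, at 0.54. Ribosomal protein genes have near-identical processed copies, which spotted cDNA cannot separate.

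Promoters of 44 of the 52 genes were found in the RefSeq table (GRCr8, by gene identifier), and the 250 bases before each start were searched on both strands. The letters CTTCCG, the core of ETS-type sites common in ribosomal protein promoters, occurred in 22 of the 44 (50.0%), against 15.5% of 27457 promoters. The letters GCCATNTT, the YY1-type core, occurred in 3 (6.82%, against 4.65%). The letters were chosen with the values of these genes known, a match is a description, and the shorter pattern occurs often by its length; neither pattern contains the other. Rpl11 and Rpl41, which had positive differences, also held the letters CTTCCG, so these letters did not separate members by direction. A pair of windows is shown as examples of members with a match, with the match in capitals. The Rpl4 window lies at chr8:73566405-73566476 on the plus strand, from 72 bases to 1 base before the start, with the match on the opposite strand. The Rpl29 window lies at chr8:115947569-115947642, also on the plus strand, from 74 bases to 1 base before the start.
Rpl4: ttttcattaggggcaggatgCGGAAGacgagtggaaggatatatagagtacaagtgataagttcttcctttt
Rpl29: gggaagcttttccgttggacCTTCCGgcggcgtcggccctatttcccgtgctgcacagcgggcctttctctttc
Rpl29 had 1.58, 0.69 and 2.34 at 24 h and 0.30, 0.90 and -0.08 at 72 h, a difference of -1.17 ± 0.50 (SE) with an adjusted p of 0.331. Its groups overlapped, as 24 h replicate 2 was below 72 h replicate 2.

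**Figure D3:**
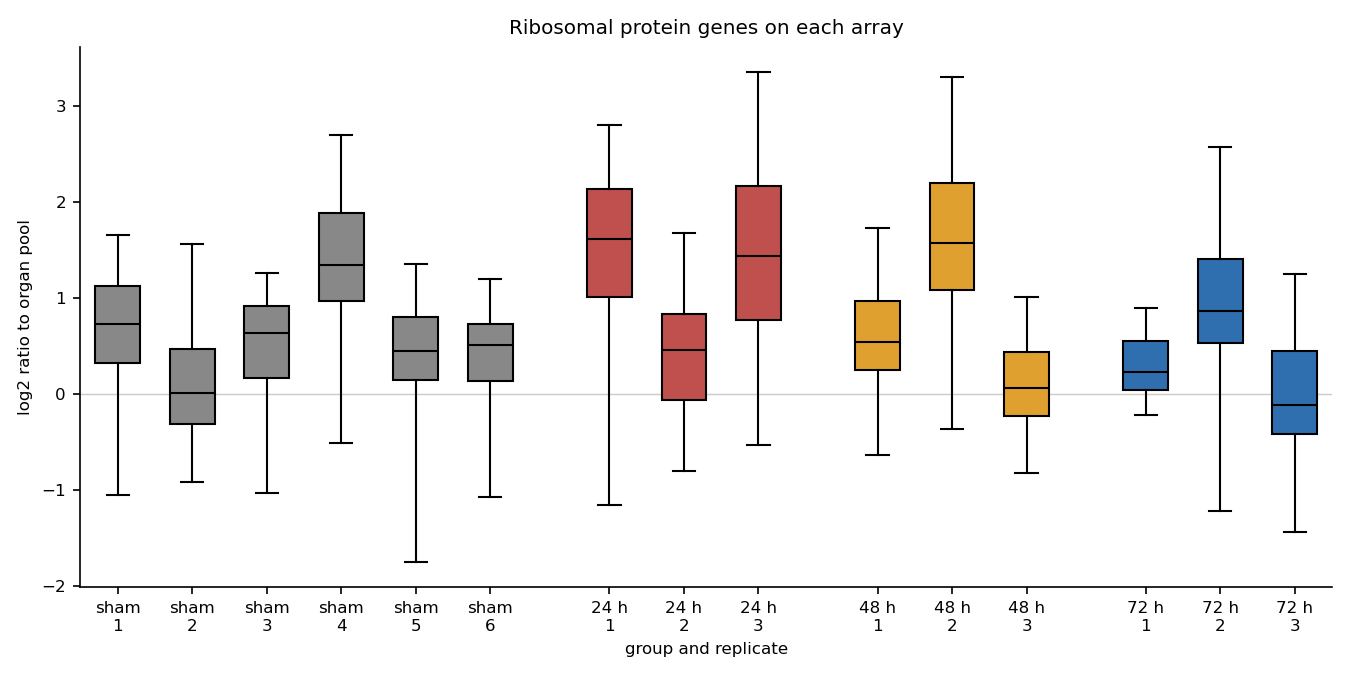
Centred log2 ratio to the organ pool of the 52 genes of the ribosomal protein list (vertical axis) on each sham, 24 h, 48 h and 72 h array (horizontal axis); boxes are quartiles, the line the median and whiskers the full range. The 24 h medians are 1.62, 0.46 and 1.44 and the 72 h medians 0.23, 0.86 and -0.11, with 48 h replicate 2 at 1.58 among the high ones.

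Genes induced by interferon, which encode antiviral proteins and T cell attractants, were read next. Of 17 tested, 11 had a difference above 0 (64.7%, against 50.5%), and the median was 0.17, above 0 under each scaling and alternative run. None was called; 4 were higher and 0 lower at an unadjusted p under 0.05, against 6.43% and 6.95% of all features. Rsad2, the antiviral enzyme viperin, had -0.31, -0.39 and 0.32 at 24 h, 0.53, 0.46 and 0.20 at 48 h and 0.73, 1.73 and 1.5 at 72 h. Each 72 h array was above each of the others, and the sham median was -0.16. The difference was 1.45 ± 0.32 (SE) with an adjusted p of 0.0998. On the arrays of 1 to 16 h it had ranged from -0.84 to 0.17.

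Cxcl10, a chemokine that draws activated T and natural killer cells, had -1.07, -0.75 and -0.66 at 24 h and -0.43, 0.23 and 0.79 at 72 h (adjusted p 0.283). Ifit1, which binds foreign RNA, had -0.41, -1.28 and -0.58 and -0.12, 0.93 and 0.09 (adjusted p 0.287). Mx1, a dynamin-like antiviral protein, had -1.23, -0.20 and 0.06 and 0.17, 0.79 and 0.69 (adjusted p 0.316). These groups did not overlap either, and 72 h replicate 1 was the lowest of its group in each. The other 13 did not follow. Tap1, the peptide transporter, was -0.83 and Oas1b -0.79, both with no overlap, and Irf1, Cxcl9, Mx2 and Gbp2 were 0.17, 0.24, 0.26 and 0.15. Ifng, the gene of interferon gamma itself, had 1.12, 0.69 and 1.16 at 24 h and 0.04, -0.51 and -0.15 at 72 h, a difference of -1.20 ± 0.28 (SE) with an adjusted p of 0.117. Its 24 h level was near the sham median of 1.09. Socs1, an inhibitor of cytokine signalling, had -1.07, 0.05 and -2.88 and 0.05, 0.20 and 0.26, with an overlap at 24 h replicate 2 and an adjusted p of 0.235.

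Of these 17 genes, 14 had a promoter in the RefSeq table, and 9 of the 14 (64.3%) held the letters GAAA, any 2 bases and GAAA again, the core of the interferon-stimulated response element, on either strand, against 3.61% of all 27457 promoters. The windows of Rsad2 and Cxcl10, the matching members whose values are given above for each array, are shown with the match in capitals. The Rsad2 window lies at chr6:48788178-48788287 on the minus strand, from 167 to 58 bases before the start, with the match read on the opposite strand. The Cxcl10 window lies at chr14:15988816-15988925 on the plus strand, from 250 to 141 bases before the start.
Rsad2: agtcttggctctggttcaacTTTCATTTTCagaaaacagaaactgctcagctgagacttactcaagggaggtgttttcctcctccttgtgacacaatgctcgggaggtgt
Cxcl10: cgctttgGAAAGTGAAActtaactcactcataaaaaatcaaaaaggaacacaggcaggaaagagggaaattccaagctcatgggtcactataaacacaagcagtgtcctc
Tap1 and Oas1b, which lay lower at 72 h, also held these letters, so the letters did not separate members by direction.

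Mast cells store proteases in granules and sit along airways and vessels. Of 15 genes of mast cells, 9 had a difference above 0, with a median of 0.16, which was -0.01 to 0.40 with an array left out. None was called. At an unadjusted p under 0.05, 4 were higher (26.7%, against 6.43% of all features) and 0 lower (6.95% of all features). In 5, all 72 h arrays were above all 24 h arrays (33.3%, against 11.8%). Of these 5, Mcpt10 was barely apart, with 0.9276 on 24 h replicate 3 and 0.9289 on 72 h replicate 3. Mcpt9 had -0.76, -0.21 and -0.59 at 24 h and 0.63, 1.99 and -0.06 at 72 h (adjusted p 0.213), and Mcpt10 had -0.27, 0.59 and 0.93 and 1.19, 2.52 and 0.93 (adjusted p 0.288). In both, 72 h replicate 2 was the highest. The other Mcpt genes of the list all had overlapping groups, with Mcpt8 at -0.31, Mcpt3 at -0.05, Mcpt1 at 0.16 and Mcpt4 at 0.31. Mcpt10 was above its sham median of -0.46 on all 6 arrays. Cma1, named as a mast cell chymase, had -0.65, -0.82 and -0.94 and 0.31, -0.14 and 0.07 (adjusted p 0.299), the 72 h arrays being nearer the sham median of 0.40. Tpsb2, a tryptase, had 2 values at 24 h, -0.65 and -0.36, and 0.24, -0.10 and 2.41 at 72 h (adjusted p 0.316). Other defining genes did not follow: Tpsab1 was -0.31, Cpa3 -0.03, Ms4a2 -0.46 and Hdc, which makes histamine, -0.58. Kit was 0.53 with no overlap, and Fcer1a 0.43. The proteases and the receptor and histamine genes thus gave no common direction.

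The lymphocyte and natural killer list had 23 of 32 above 0 (71.9%, against 50.5% of all features), with a median of 0.29, 0.47 without centring and 0.39 with quantile normalization. None was called; at an unadjusted p under 0.05, 4 were higher (12.5%, against 6.43% of all features) and 2 lower (6.25%, against 6.95%). Besides Klra22, the killer cell lectin receptor Klrb1a went from -0.83, -0.40 and -0.13 to 0.46, 0.48 and 0.52 (adjusted p 0.263), and Klra5, of the Ly49 family, from -0.53, -0.63 and 0.07 to 0.14, 0.47 and 0.44 (adjusted p 0.294). Cd80, the costimulatory ligand on antigen-presenting cells, went from -0.64, 0.18 and -0.23 to 0.49, 0.71 and 1.16 (adjusted p 0.168). The T cell markers Cd3d, Cd4 and Cd8a had 0.50, 0.20 and 0.55, and Klrd1 0.13, all with overlapping groups. Of the 9 members below 0, Ifng and Cd37 had an unadjusted p under 0.05, Cd37 at -0.59 ± 0.20 (SE).

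Neutrophil and recruitment genes had 10 of 27 above 0 and a median of -0.17, which was 0.01 without centring. None was called, and at an unadjusted p under 0.05, 2 were higher (7.41%, against 6.43% of all features) and 4 lower (14.8%, against 6.95%). Cxcl1, which attracts neutrophils, had 1.61, 0.68 and 0.36 at 24 h and 0.15, -0.09 and 0.06 at 72 h (adjusted p 0.263). Fcgr2a, an Fc receptor of myeloid cells, had 0.69, 0.11 and 0.40 and -0.32, -0.31 and -0.92, a difference of -0.92 ± 0.30 (SE, adjusted p 0.229), and its 72 h level was still mostly above the sham median of -0.87. S100a8 had 2.73, 0.87 and 0.29 and 0.53, 0.58 and 0.00, with 24 h replicate 1 alone high, and S100a9, its partner in the calprotectin dimer, had 5.39, 0.68 and 1.70 and 2.14, 3.34 and 0.70. Mmp8, the neutrophil collagenase, went the other way, with 0.77, -1.28 and -0.05 and 1.76, 3.46 and 0.75, a difference of 2.18 ± 0.85 (SE); the groups just overlapped. Cybb, the catalytic subunit of the phagocyte oxidase, had -0.45, -0.23 and -0.80 and 0.54, 0.70 and 0.85 (adjusted p 0.275). The granule gene, the oxidase gene and the calprotectin genes thus did not share a direction.

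**Figure D4:**
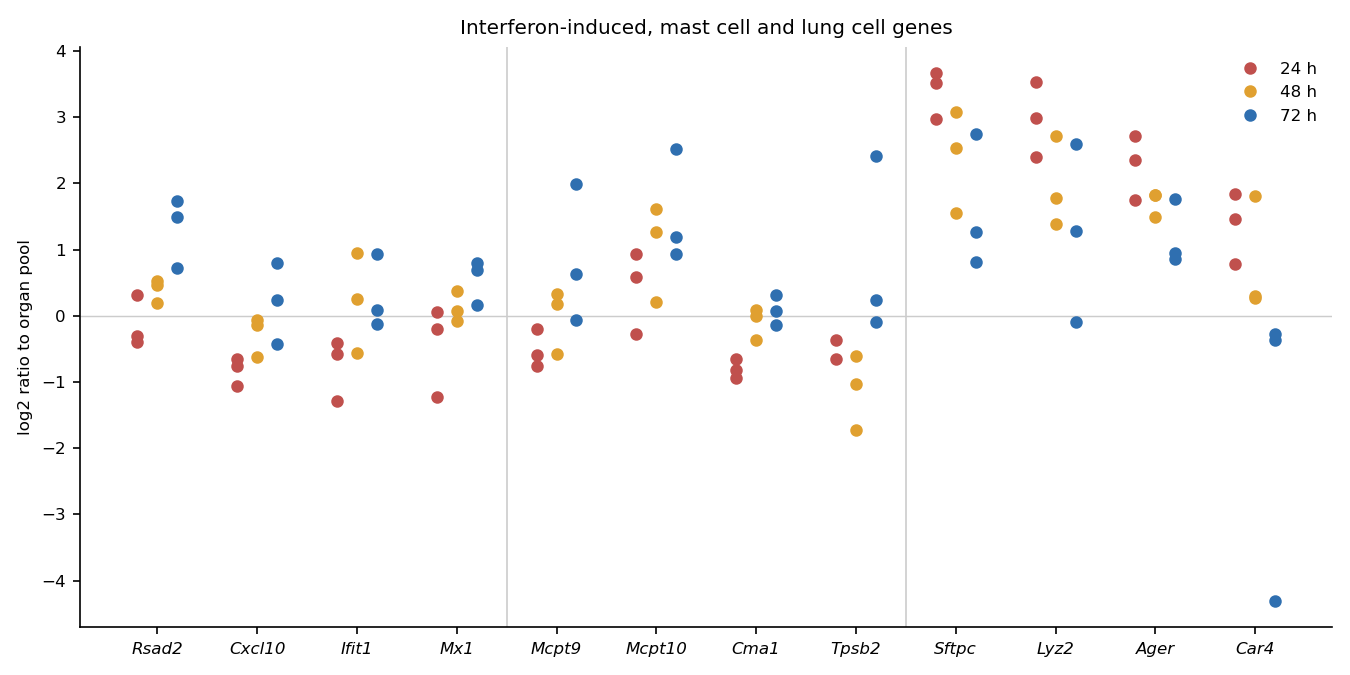
Centred log2 ratio to the organ pool (vertical axis) of genes induced by interferon, mast cell genes and lung cell genes (panels from left to right), each point an array at 24 h, 48 h or 72 h. Tpsb2 has 2 values at 24 h, and Car4 on 72 h replicate 3 is at -4.31, near the floor.

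Macrophage and lysosome genes had 7 of 25 above 0 and a median of -0.18, which was 0.00 without centring. None was called, and at an unadjusted p under 0.05, 0 were higher (6.43% of all features) and 5 lower (20%, against 6.95%). Ctsd, the lysosomal aspartic protease, had 0.97, 1.53 and 1.08 at 24 h and 0.34, -0.26 and -0.16 at 72 h, a difference of -1.22 ± 0.30 (SE, adjusted p 0.121). Ctss, the cathepsin of antigen-presenting cells, had 0.81, 0.29 and -0.05 and -0.38, -0.74 and -0.73, -0.96 ± 0.26 (SE, adjusted p 0.168). The groups were apart in both, and the 24 h levels were the nearer to sham for Ctsd, whose sham median was 1.17. Lyz2, lysozyme, had 3.53, 2.40 and 2.98 and -0.09, 2.60 and 1.27, and overlapped through 72 h replicate 2.

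Among lung epithelial genes, Sftpc, the surfactant protein made by type II pneumocytes, had 3.66, 2.97 and 3.52 at 24 h, 1.55, 3.08 and 2.54 at 48 h and 0.82, 2.74 and 1.27 at 72 h. All 72 h arrays were below all 24 h arrays, a difference of -1.78 ± 0.54 (SE, adjusted p 0.197), and the sham median was 3.16. Sftpa1, Sftpb and Sftpd, which overlapped, had -0.26, -0.53 and -0.71. Of the 5 type II pneumocyte markers, these 4 and Napsa, 0 had a difference above 0. Their mean level was 1.30 to 2.32 at 24 h and 0.84 to 1.27 at 72 h. Over the surfactant and type II list as a whole, 12 of 21 were above 0, with a median of 0.03. Aqp4, a water channel, had -3.26, -0.58 and -0.52 and -0.19, 0.19 and 1.19, the lowest value near the floor on 24 h replicate 1.

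The list of type I, club and ciliated cells had 8 of 25 above 0 and a median of -0.31, -0.12 without centring and -0.02 with quantile normalization. Its median level was 0.57, 0.63 and 0.62 on the 24 h arrays and 0.31, 0.20 and 0.44 on the 72 h arrays, which did not overlap. That was not particular to this list, as the median levels of the clock, plasma protein, matrix and cytokine lists did not overlap either. No member of the type I, club and ciliated list was called. At an unadjusted p under 0.05, 0 of its members were higher (6.43% of all features) and 4 lower (16%, against 6.95%). Ager, the receptor that marks type I cells, had 1.75, 2.35 and 2.72 and 1.76, 0.86 and 0.96 (adjusted p 0.198), with 72 h replicate 1 just above 24 h replicate 1. Foxj1, the master regulator of motile cilia, had 0.59, 1.58 and 1.55 and -1.44, -0.03 and -1.04 (adjusted p 0.211); its sham median of -0.62 was nearer the 72 h level. The other 2 were Krt5 at -0.92 and Cyp4b1 at -0.83, whose 2 accessions disagreed at 0.15 and -1.80. The type I markers Akap5 and Aqp5 had -0.31 and -0.01, and the club cell secretoglobin Scgb1a1 -0.43, all with overlapping groups.

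Endothelial genes had 18 of 29 above 0 and a median of 0.25. Car4, a carbonic anhydrase of lung capillaries, had 1.46, 0.79 and 1.83 at 24 h and -0.36, -0.27 and -4.31 at 72 h, a difference of -3.01 ± 0.78 (SE, adjusted p 0.149). Replicate 3 of 72 h was near the floor, and without it the difference was -1.68. Kdr and Plvap, further endothelial markers, had 0.31 and 0.54. Vasoactive genes had 30 of 51 above 0, with a median of 0.11, 0.01 to 0.09 with an array left out. Adra1b, the alpha-1B receptor of noradrenaline, had -0.40, -0.23 and -0.68 at 24 h and 0.24, 0.76 and 0.60 at 72 h, 0.97 ± 0.23 (SE, adjusted p 0.117), against the beta-1 receptor Adrb1, which had the opposite sign. Its 24 h arrays were the ones below the sham median of 0.18. Bdkrb2, the bradykinin receptor, had 0.33, 1.07 and 0.86 and -0.46, -0.19 and -0.39 (adjusted p 0.263). Agtr1a, the angiotensin receptor, was -0.89 with overlap, and Adm, the vasodilator adrenomedullin, -0.74 with none.

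Contractile and smooth muscle genes had 20 of 47 above 0 and a median of -0.10, which was 0.08 without centring. None was called, and at an unadjusted p under 0.05, 3 were higher (6.38%, against 6.43% of all features) and 10 lower (21.3%, against 6.95%). Actb, cytoplasmic actin, had 0.82, 0.54 and 0.23 at 24 h and -0.01, -0.85 and -0.97 at 72 h (adjusted p 0.165), and Actg2, smooth muscle actin of the gut, 0.46, 0.51 and 0.40 and -0.30, -0.36 and -0.01 (adjusted p 0.233). Genes of striated muscle lay on both sides. Myl2 was -1.31, Tnnt3 -0.78 and Ckm -0.81, each with 72 h below 24 h and no overlap, while Ryr2, the cardiac calcium release channel, was 1.01, Tnni1 0.41 and Myl3 1.02, each with 72 h above 24 h and no overlap. Atp2a2, Pln and Casq2, which handle calcium in heart and slow fibres, were 1.17, 0.66 and 0.37, with overlap. Acta1, skeletal actin, was -1.12, but its 2 accessions gave -0.07 and -2.17. Myh3 had 2.12, with 24 h replicate 1 near the floor. The muscle marker levels given with Pvalb apply to these genes too.

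Genes of protection against oxidants had 18 of 45 above 0 and a median of -0.18, which was 0.00 without centring. Gpx3, the plasma glutathione peroxidase, had -0.10, -0.58 and -0.74 at 24 h and -1.38, -1.56 and -1.40 at 72 h (adjusted p 0.168), and the 48 h arrays, -1.45, -1.06 and -1.46, had already the 72 h level. Prdx5, a peroxiredoxin, had 2.19, 0.96 and 0.04 and -0.45, -0.52 and -1.13 (adjusted p 0.283), with a wide spread at 24 h. Cat, catalase, went the other way at 0.61 with no overlap. Of the chaperones, Hspa8, the constitutive Hsc70, had 1.94, 1.12 and 1.31 and 0.00, 0.32 and -0.57, -1.54 ± 0.39 (SE, adjusted p 0.149), and the inducible Hspa1a was -0.80, while Dnaja1, Hspb6 and Dnajb9 were 0.89, 0.65 and 0.79. The chaperone list had 18 of 37 above 0, with no common direction.

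Mitochondrial respiration genes had 18 of 50 above 0 and a median of -0.22, below 0 under each scaling. Slc25a5, the adenine nucleotide carrier, had 0.57, 0.01 and 0.23 at 24 h and -0.53, -0.71 and -1.38 at 72 h (adjusted p 0.161), and Cox5b, of cytochrome oxidase, -0.09, 0.32 and -0.13 and -0.45, -1.29 and -1.07 (adjusted p 0.174). Uqcrfs1, of complex III, was 1.04. Of the hypoxia and glycolysis list, Mdh1, the cytosolic malate dehydrogenase, had 1.15, 0.78 and 1.12 and a narrow 0.16, 0.15 and 0.10, -0.88 ± 0.23 (SE, adjusted p 0.158), with the 72 h arrays near the sham median of 0.06. Slc2a3, a glucose transporter, was -1.08 and Gapdh -0.62, both with no overlap, and Tpi1 was 1.20. That list as a whole had 22 of 43 above 0.

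Plasma protein and hepatocyte genes had 14 of 52 above 0 (26.9%, against 50.5% of all features) and a median of -0.20, -0.02 without centring and -0.24 with quantile normalization. None was called. At an unadjusted p under 0.05, 0 were higher (6.43% of all features) and 4 lower (7.69%, close to the 6.95% of all features). Besides C4b the latter were A2m, the broad protease inhibitor, from 0.40, 0.42 and 0.02 to -0.22, -0.64 and -0.64 (adjusted p 0.18); Plg, plasminogen, at -0.76; and Orm1, an acute phase protein, at -1.0. The 6 hepatocyte markers together had a mean level of -1.24 to -0.60 at 24 h and of -1.53 to -1.14 at 72 h; Alb was -0.20 and Hp -1.20. Their part in the result was not tested. Of the lipid genes, Apoc1, an apolipoprotein, went from 1.62, 0.46 and 1.76 to -0.94, -0.25 and -0.64 (adjusted p 0.174), in a lipid list with 45 of 83 above 0.

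Clock genes had 6 of 16 above 0 and a median of -0.22. The 2 times are 48 h apart, a whole number of days. Tef, an output factor of the clock, had 0.84, 0.30 and 0.13 at 24 h and 0.08, -0.94 and -1.08 at 72 h (adjusted p 0.212), Rorb was -0.97, and Nr1d2 0.36. Growth factor and morphogen genes had 37 of 78 above 0, with 4 higher (5.13%, against 6.43% of all features) and 10 lower (12.8%, against 6.95%) at an unadjusted p under 0.05 and none called. Nrg1, an epidermal growth factor family ligand, went from -0.95, -0.02 and -1.14 to 0.40, 0.75 and 0.91 (adjusted p 0.168), while its receptor Erbb3 went from 0.75, 0.69 and 0.57 to 0.27, -0.54 and -0.81 (adjusted p 0.229). The pair had opposite signs, each with no overlap. Axin2, a target and brake of Wnt signalling, had -0.07, 0.22 and 0.20 and -0.41, -1.26 and -0.98 (adjusted p 0.169). In the TGF-beta family, Tgfbr3 and Acvrl1 were -0.93 and -0.84, and Bmpr1a and Smad2 1.05 and 0.99. Fgfr3 had -0.20, -1.26 and -0.20 and -1.27, -1.40 and -2.31, and Hes5, a Notch target, 0.32, -0.30 and -0.67 and -0.94, -1.34 and -1.85; both were farther below their sham medians of 0.58 and 0.71 at 72 h than at 24 h (adjusted p 0.233 and 0.229).

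Matrix genes had 40 of 72 above 0. The collagenase Mmp13 went from 0.06, 0.49 and 0.01 to 0.75, 1.10 and 1.43 (adjusted p 0.229) and Mmp2 and Mmp14 were 0.70 and 0.87, all with no overlap. Eln, elastin, went from 1.52, 1.08 and 1.31 to 0.60, -0.24 and -0.41 (adjusted p 0.229), and Timp1, an inhibitor of these proteases, was -0.89. Cell cycle genes had 28 of 39 above 0 (71.8%, against 50.5% of all features) and a median of 0.20, 0.38 without centring. Cdk1, the mitotic kinase, had -3.18, -2.12 and -1.94 and -1.43, -0.90 and -0.88 (adjusted p 0.367), and Aurka was 0.85, while the replication genes Pold1 and Prim1 were -0.82 and -1.30.

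In the remaining lists, medians lay between -0.11 and 0.15, against 0.01 for all features. They were 0.01 for cytokines and chemokines, -0.08 for MHC genes, -0.05 for immediate early genes and 0.02 for erythroid and platelet genes. For xenobiotic metabolism the median was 0.04, for ion channels 0.08, for the proteasome -0.11 and for apoptosis 0.15. Without centring the medians of MHC, immediate early and proteasome genes were above 0 and below the 0.19 of all features. Examples were RT1-Db1, a class II chain, at -0.90 ± 0.27 (SE), whose 3 accessions gave -0.95, -0.97 and -0.78, Psmb3 of the proteasome at -1.19 ± 0.36 (SE), Casp8 at 1.40 ± 0.45 (SE), and Tfrc, the transferrin receptor, at 1.03 ± 0.43 (SE). None of the 29 lists held a called gene.

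**Figure D5:**
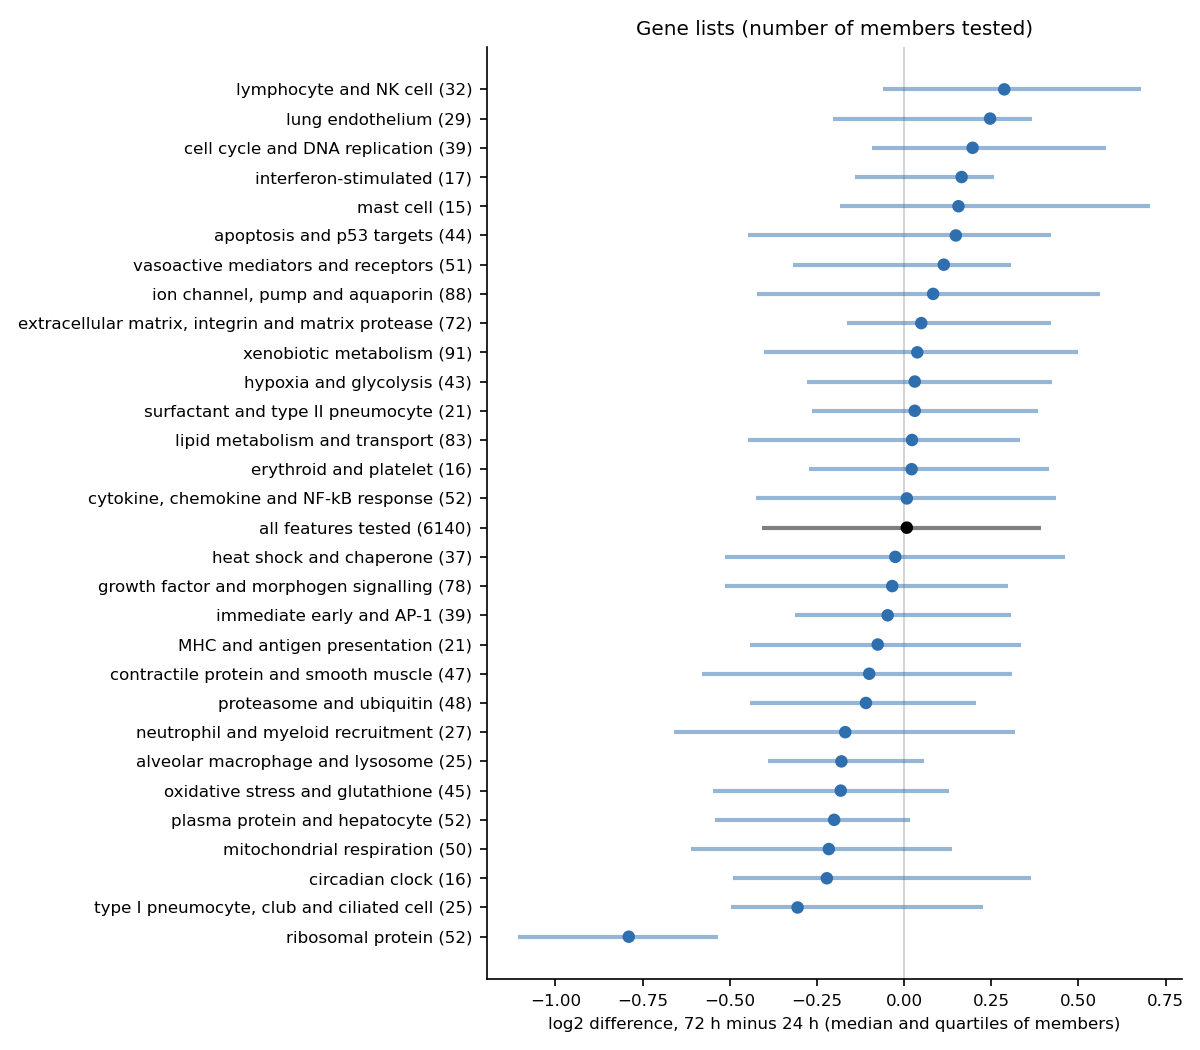
Median (point) and quartiles (bar) of the log2 difference between 72 h and 24 h for the members of 29 gene lists, with the number of members tested in brackets; the black mark is all 6140 features. The ribosomal protein list has the lowest median, -0.79, and its quartiles lie below 0, while the quartiles of every other list lie on both sides of 0.

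Genes that earlier readings of these arrays had set apart from sham at 24 h or 72 h were 27, of which 0 were called between the 2 times. At an unadjusted p under 0.05, 6 were higher and 6 lower, against 6.43% and 6.95% of all features. The groups did not overlap for 11, with 72 h above in 6 and below in 5, against 11.8% and 9.59% of all features. The 27 genes were picked for their values on these same arrays, which favours gaps between the times, so nothing is read from these counts. Those of the 11 already given are Klra22, Rsad2, Mcpt10 (barely apart), Car4, Fcgr2a, Fgfr3 (also barely apart) and Hes5. The rest are Cdh13, Ube3a, Lep and Gclc. Cdh13 had a difference of 2.62 ± 1.02 (SE) and 24 h values partly near the floor. Pgf, a ligand of the VEGF family, had 4.23, 0.62 and 0.75 at 24 h and 1.26, 2.61 and 0.69 at 72 h, against a sham median of -0.99. Cdh1, E-cadherin, had -2.51, -2.02 and -2.26 and -1.67, -1.90 and -2.54, below the sham median of -0.31 at both times. Ube3a, a ubiquitin ligase, had 0.36, 0.22 and 0.57 and 0.60, 1.16 and 0.98, above the sham median of -0.91 at both times and higher on each 72 h array (adjusted p 0.38). Lep, leptin, had -1.88, -1.78 and -3.0 and -1.60, -1.61 and -1.55, with all 72 h arrays above all 24 h arrays, nearer the sham median of -0.69, and an adjusted p of 0.427. The differences of Rhag, Ccl20, Ptprc and Jun were 0.00, -0.13, 0.15 and 0.23, and those of Gpx4, Gclc, Hspe1, Jund and Fos -0.72, -0.82, -0.62, -0.76 and -0.53, with adjusted p-values from 0.348 to 0.996.

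The 48 h arrays were then set against the mean of 24 h and 72 h, a contrast independent of the step between those times. Of 6113 features, 0 passed at an adjusted p under 0.05 by limma (0%), with 171 (2.8%) at an unadjusted p under 0.05; 1 passed without centring. The smallest p belonged to Cdh13, T-cadherin of vascular cells, at 5.84 ± 0.94 (SE) with an adjusted p of 0.0841. Its 24 h values of -2.80 and -5.51 came from 2 arrays and lay partly near the floor. The next was Nmt1, which attaches myristate to proteins, with 0.96, 1.92 and 1.97 at 24 h, -0.15, -1.27 and -0.42 at 48 h and 0.62, 1.07 and 1.40 at 72 h (adjusted p 0.499). Replicate 2 of 48 h correlated best with 24 h replicate 3 (0.66) and less with the 72 h arrays (0.25 to 0.50), and for 3 of the 8 leading lower genes it reached the 24 h range.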

How the data were processed

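Lung RNA of each sample and the RNA of an organ pool were hybridised to 2-colour spotted cDNA arrays. The authors deposited log2 ratios for 13056 spots per array, per the series' value table. Their linear values are all within 0.001 of a multiple of 0.01, with a lowest value of 0.01. Scanner, background correction and normalization: not given in the sources used here. Arrays carry no counts, and their number limits the precision.

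Each array was centred on its median. Spots were averaged per gene symbol, and otherwise per accession or, for the 2388 spots without one, per pair of neighbouring spots, giving 6223 features. Gene names came from the platform annotation. A linear ratio of 0.05 or less counted as near the floor.

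limma 3.58.1 (lmFit and eBayes, R 4.3.3) was fitted to the 23 arrays of the 7 bled groups, with 16 residual degrees of freedom. The contrasts were 72 h minus 24 h, and 48 h minus the mean of both, two-sided. p-values were adjusted by Benjamini-Hochberg over all features tested, and called under 0.05. The fit was tested on simulated data. No gene set test was run.

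Named genes are called genes without overlap between groups, filled to 8 in each direction by smallest p; the members of smallest p in each list, with further members as examples chosen after their values were seen; and genes of earlier results, as values only. The members and lists were chosen with earlier results of these data known.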

Additional observations from a re-analysis of the deposited data

Results flagged for a closer look

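The sham values of the 16 leading genes and of the ribosomal median, 17 groups in all, were checked for an extreme array, and 2 had one; chance gives about 1 in 20. For Rsad2, sham replicate 2 had -1.20 where the remaining 5 spanned -0.36 to 0.11. For Adrb1 it had -1.07 where they spanned -0.26 to 0.17. That array also carried Alb at 2.62 and Sftpc at -3.48. No sham array entered the test between 72 h and 24 h.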

How the results depend on the processing

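The 72 h against 24 h test called 3 genes, and the count was 2 to 3 without centring, without a filter, with values on all 3 arrays required, per accession, with the median of spots, without near-floor spots and without 16 h replicate 3. It was 5 with quantile normalization, 7 with all 32 arrays, 7 with array weights (whose estimation stopped before convergence), 0 over the 6 arrays of the comparison and 0 over the 9 arrays of 24 h, 48 h and 72 h (943 at an unadjusted p under 0.05). With an array left out it was 0 to 15. The replicate numbers did not pair the samples: correlations of same-numbered deviations were -0.26 to 0.07, with 0 of 3 over 0.1. With the replicate number as a block, over the 9 arrays, the count was 0 (802 at an unadjusted p under 0.05). Pvalb was called in 11 of 18 alternatives, Slc22a8 in 13 of 18 and Rhbdl2 in 9 of 14. Myh8 was called in 5 and Adrb1 in 3. The 48 h contrast called 0 genes, and 1 without centring. Over 91 named genes and 1630 alternative values, 1593 stayed on their side of the threshold, 17 lost and 20 gained a call, and 15 had the other sign, none of them in a called gene. Of 522 list medians, 478 moved by less than the spread between replicates. The causes were not tested. With 3 arrays per group small differences cannot be resolved, and spots near the floor give no reliable size.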
